A study of Mus musculus with 4 samples.

Results

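The 10 genes described here encode the receptor chains for type I interferon (Ifnar1, Ifnar2), for interferon gamma (Ifngr1, Ifngr2) and for interleukin 10 (Il10ra, Il10rb), together with the 4 Janus kinases Jak1, Jak2, Jak3 and Tyk2. They were chosen by gene symbol, as the receptors and kinases that stand upstream of STAT signalling, and make up 10 of the 55401 genes in the deposited table. RNA was sequenced from macrophages grown with M-CSF out of the bone marrow of C57BL/6 mice aged 8 weeks and then cultured beside MC38 cells, a colon carcinoma line of the mouse, for 24 h. The 2 knockout libraries (LysM-cre, Mettl3fl/fl; numbered 1 and 3) were set against 2 control libraries (Mettl3fl/fl; also numbered 1 and 3), so both groups carry the floxed alleles and the co-culture, and only the knockouts carry the Cre. Mettl3 encodes the methyltransferase that places N6-methyladenosine (m6A) on mRNA. LysM-cre is driven from the lysozyme locus Lyz2, which is active in myeloid cells. The labels name neither the deleted exons nor the number of mice behind a library.

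Each of these receptors pairs chains without kinase activity of their own, and each chain holds a Janus kinase at its inner end. IFNAR1 holds TYK2 and IFNAR2 holds JAK1; IFNGR1 holds JAK1 and IFNGR2 holds JAK2; IL10RA holds JAK1 and IL10RB holds TYK2. Ligand binding brings the chains together, the kinases phosphorylate each other and the receptor tails, and STAT proteins dock there, among them STAT3 below the IL-10 receptor. In macrophages, interferons switch on antiviral and antigen presentation genes, and IL-10 restrains inflammatory ones. JAK3 works with the common gamma chain of lymphocyte-type cytokine receptors and is not part of the receptors named here.

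Total counts were 62563556 and 79209870 in the knockouts and 55100415 and 61075754 in the controls. The targeted gene overlapped between the groups but was lower in the knockout within each number: Mettl3 stood at 13.9 and 19.6 CPM (counts scaled to a common library total with edgeR's TMM factors) in knockouts 1 and 3 and at 18.3 and 23.2 CPM in controls 1 and 3, a count over the whole gene that does not check the deletion. Number and sex coincided, since the X-inactivation transcript Xist stood at 1161 and 1350 CPM in knockout 3 and control 3, against 0.624 and 0.589 CPM in knockout 1 and control 1. For the 10 members every genotype difference is therefore also given within each number. All 8 macrophage markers were expressed, with 16160 and 17650 CPM summed over the 7 other than Lyz2 in the knockouts and 17520 and 14060 CPM in the controls. T and NK cell markers summed to at most 1.18 CPM in any library. The 6 epithelial markers summed to at most 1.33 CPM in any library. Krt19 was detected in all 4 libraries and made up most of that sum, and Cdh1 stood at 0.128 CPM or less. Epcam, Krt8, Krt18 and Krt20 were at a count of 0 in all 4 libraries.

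No receptor chain or kinase was called different between knockout and control macrophages. The tests called few or 0 of all genes, so this does not show that levels were equal. All 10 genes passed the filter on low counts. By edgeR's quasi-likelihood test 0 of them were called at an adjusted p under 0.05, where 0.0% of the 17260 tested genes were called. At an unadjusted p under 0.05 there were also 0 members, against 2.27% of all genes. DESeq2 called 0 of the 10 as well, with 0 at an unadjusted p under 0.05, against 0.295% of all genes called and 2.42% at an unadjusted p under 0.05. Every genotype estimate below is knockout over control on the log2 scale, with its SE after the ± sign and 2 libraries in each group. These estimates were above 0 for 6 members and below 0 for 4, with a median of 0.01. The knockouts and the controls overlapped for all 10 members, whereas the knockouts were the 2 highest libraries for 13.1% of tested genes and the 2 lowest for 13.4%. The median size of the fold change, whatever its sign, was 0.12 for the members and 0.11 for the 4697 tested genes whose mean level lay in the members' range.

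**Figure D1:**
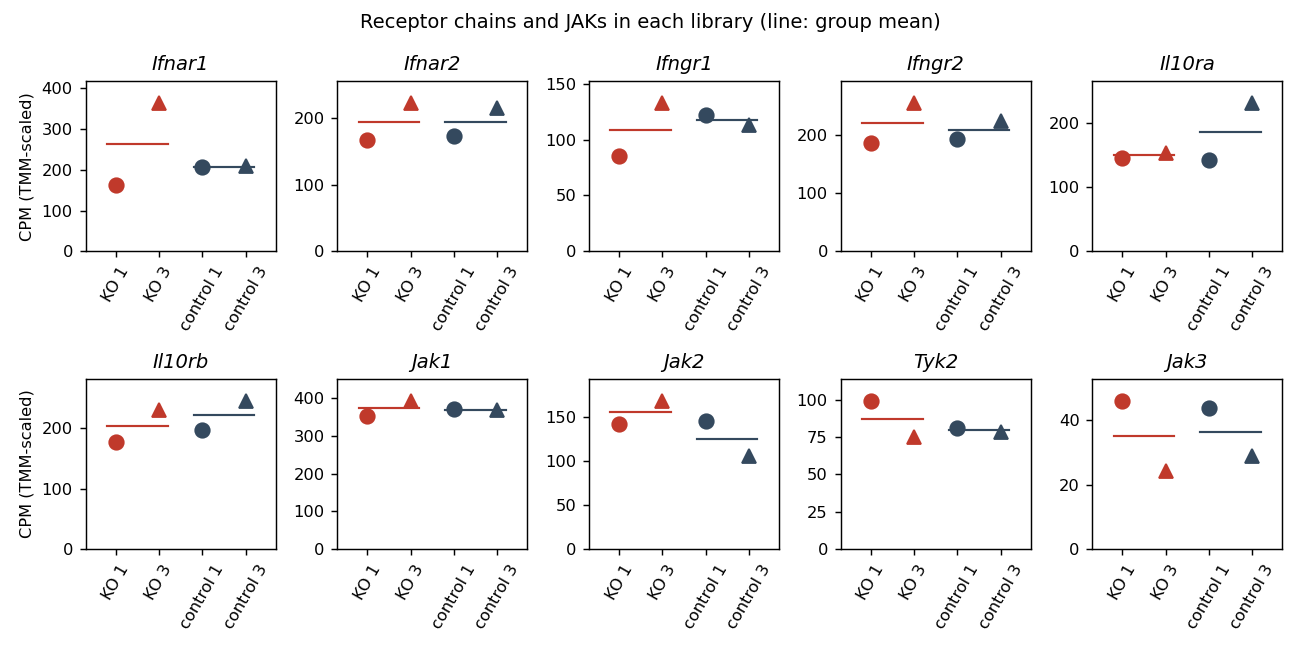
Level of each receptor chain and kinase in TMM-scaled CPM, with knockout libraries (KO, red) left of control libraries (dark), circles for number 1, triangles for number 3 and a line at each group mean. The groups overlap in all 10 panels, and Ifnar1 in knockout 3 stands apart at 364 CPM.

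Of the type I interferon receptor, Ifnar1 was the more variable chain. Ifnar1 (ENSMUSG00000022967, chromosome 16, 91485238 to 91507441, plus strand) stood at 162 and 364 CPM in knockouts 1 and 3, against 206 and 210.1 CPM in controls 1 and 3. The 2 knockouts thus lay on either side of the closely matched controls. Its genotype estimate was 0.34 ± 0.41 (edgeR unadjusted p = 0.448, adjusted p = 1), and the 95% interval ran from 0.599-fold to 2.67-fold. Number 1 gave a log2 difference of -0.34 and number 3 one of 0.79. The pooled value turned to -0.36 without knockout 3 and was 0.82 without knockout 1. Ifnar2 (ENSMUSG00000022971, chromosome 16, 91372783 to 91405589, plus strand), the chain that binds interferon most tightly, stood at 167 and 222 CPM in the knockouts and at 174 and 215 CPM in the controls. Here the 2 libraries of each number lay close together, and the libraries numbered 3 were the higher ones in both groups. The log2 fold change of Ifnar2 was 0.00 ± 0.22 (edgeR adjusted p = 1), with a 95% interval from 0.669-fold to 1.503-fold.

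Levels of different genes can be compared per length, on the authors' FPKM scale. The ratio of Ifnar1 to Ifnar2 in FPKM was 0.544 and 0.918 in knockouts 1 and 3, and 0.665 and 0.549 in controls 1 and 3. By this measure Ifnar1 was therefore the lower gene in all 4 libraries, least so in knockout 3. FPKM here divides by the total exon length of a gene, 5940 bases for Ifnar1 and 3329 for Ifnar2. The transcripts with the longest coding sequence are 3909 and 3047 bases, so such ratios between genes, here and below, depend on the length chosen.

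The promoters of Ifnar1 and Ifnar2 are shown because they were the only ones among the members to hold the letters TTCNNNGAA, a form of the GAS element that STAT dimers bind. RefSeq (GRCm38.p6) gave a promoter, from 250 bases before to 50 bases after the start site, for 8 members; Il10ra and Il10rb had none. The search covered both strands, and the motif reads the same on each. It occurred in 2 of the 8 member promoters, against 8.3% of 32851 promoters. The core of the interferon-stimulated response element, searched on both strands as GAAA, any 2 bases and GAAA, occurred in 0 of the 8 and in 3.44% of all promoters. Capitals mark the GAS letters, which begin 5 bases before the start site in Ifnar1 (chr16:91484965-91485264, plus strand) and 214 bases before it in Ifnar2 (chr16:91372533-91372832, plus strand). A match is a description of the letters and not a binding site.
Ifnar1: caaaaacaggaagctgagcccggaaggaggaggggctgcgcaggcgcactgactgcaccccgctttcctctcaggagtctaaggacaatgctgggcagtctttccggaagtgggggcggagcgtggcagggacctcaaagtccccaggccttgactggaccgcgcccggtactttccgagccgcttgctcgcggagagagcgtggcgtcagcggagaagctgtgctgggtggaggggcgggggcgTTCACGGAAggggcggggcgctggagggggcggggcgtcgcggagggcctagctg
Ifnar2: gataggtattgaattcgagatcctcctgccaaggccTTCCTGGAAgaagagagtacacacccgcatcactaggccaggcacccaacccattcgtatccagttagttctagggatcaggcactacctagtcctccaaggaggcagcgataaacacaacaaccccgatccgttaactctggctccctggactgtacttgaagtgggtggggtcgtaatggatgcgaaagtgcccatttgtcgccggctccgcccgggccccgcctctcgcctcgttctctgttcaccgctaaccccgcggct

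For the interferon gamma receptor, the libraries differed by up to 1.54-fold for Ifngr1 and 1.35-fold for Ifngr2 in FPKM. Ifngr1 (ENSMUSG00000020009, chromosome 10, 19591949 to 19610229, plus strand), the main ligand-binding chain, stood at 85.3 and 133 CPM in knockouts 1 and 3 and at 122 and 113 CPM in controls 1 and 3. Knockout 1 was the lowest library and knockout 3 the highest. Its genotype estimate was -0.11 ± 0.25 (edgeR unadjusted p = 0.68, adjusted p = 1; 95% interval 0.582-fold to 1.47-fold), with -0.52 within number 1 and 0.23 within number 3. Ifngr2 (ENSMUSG00000022965, chromosome 16, 91547072 to 91565623, plus strand), the signalling partner that brings in JAK2, stood at 186 and 254 CPM in the knockouts and at 192 and 223 CPM in the controls. As for Ifnar2, the libraries numbered 3 were the higher ones in both groups. The log2 fold change of Ifngr2 was 0.08 ± 0.22 (edgeR adjusted p = 1; 95% interval 0.712-fold to 1.58-fold). The ratio of Ifngr1 to Ifngr2 in FPKM was 0.605 and 0.691 in knockouts 1 and 3, against 0.843 and 0.670 in controls 1 and 3, so these ranges overlapped.

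Of the IL-10 receptor, Il10ra gave the lowest fold change of the 10 members, and it rested on a single control. Il10ra (ENSMUSG00000032089, chromosome 9, 45253837 to 45269149, minus strand), the ligand-binding chain found mainly on blood cells, stood at 145 and 152 CPM in knockouts 1 and 3, against 141 and 229.9 CPM in controls 1 and 3. Control 3 was 1.51 times the next library, and the other 3 libraries lay within a narrow band. The genotype estimate was -0.32 ± 0.27 (edgeR unadjusted p = 0.298, adjusted p = 1; 95% interval 0.487-fold to 1.32-fold), with 0.04 within number 1 and -0.59 within number 3. Leaving out control 3 gave 0.08, and leaving out control 1 gave -0.62. Control 3 was also the library with the most Lyz2, at 40790 CPM against 22060 to 25780 CPM in the other 3, and the least Itgam, at 884 CPM against 2118 to 3170 CPM; their part in the value of Il10ra was not tested. In bulk RNA, fewer cells of a type and less RNA per cell cannot be told apart. Il10rb (ENSMUSG00000022969, chromosome 16, 91406164 to 91425834, plus strand), an accessory chain shared with the receptors for IL-22 and interferon lambda, stood at 177 and 230.1 CPM in the knockouts and at 198 and 245 CPM in the controls. It was the only member with the same sign within both numbers, as 52.8% of tested genes had, at -0.16 within number 1 and -0.09 within number 3. Its genotype estimate was -0.12 ± 0.22 (edgeR unadjusted p = 0.598, adjusted p = 1; 95% interval 0.618-fold to 1.37-fold). The ratio of Il10ra to Il10rb in FPKM was 0.895 and 0.721 in knockouts 1 and 3, against 0.778 and 1.02 in controls 1 and 3.

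Among the kinases, Jak1 was the steadiest gene of the set and Jak2 the one with the smallest p between genotypes. Jak1 (ENSMUSG00000028530, chromosome 4, 101152367 to 101265282, minus strand), the kinase common to all 3 receptors, stood at 352 and 393 CPM in knockouts 1 and 3 and at 371 and 369 CPM in controls 1 and 3. Its genotype estimate was 0.01 ± 0.16 (edgeR adjusted p = 1), and its 95% interval, from 0.752-fold to 1.35-fold, was the narrowest of the 10. Jak2 (ENSMUSG00000024789, chromosome 19, 29251828 to 29313080, plus strand), the partner of IFNGR2 and of several growth factor receptors, stood at 142 and 168 CPM in the knockouts and at 145 and 105 CPM in the controls. Control 3 was the lowest library, while knockout 1 and control 1 were nearly equal. The log2 fold change of Jak2 was 0.31 ± 0.22 (edgeR unadjusted p = 0.225, adjusted p = 1; 95% interval 0.826-fold to 1.86-fold), with -0.03 within number 1 and 0.68 within number 3. Without control 3 it was 0.10, and without control 1 it was 0.57.

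Tyk2 (ENSMUSG00000032175, chromosome 9, 21104068 to 21131243, minus strand), held by IFNAR1 and IL10RB, stood at 99.2 and 75.3 CPM in knockouts 1 and 3, against 80.9 and 78.1 CPM in controls 1 and 3. Knockout 1 was the one library above the rest. Its genotype estimate was 0.13 ± 0.19 (edgeR unadjusted p = 0.517, adjusted p = 1; 95% interval 0.774-fold to 1.56-fold). Jak3 (ENSMUSG00000031805, chromosome 8, 71676296 to 71690575, plus strand) stood at 46.0 and 24.2 CPM in the knockouts and at 43.8 and 29.0 CPM in the controls. The 2 libraries numbered 1 were the high ones and the 2 numbered 3 the low ones, whatever the genotype. Its log2 fold change between genotypes was -0.05 ± 0.39 (edgeR adjusted p = 1; 95% interval 0.469-fold to 1.99-fold).

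**Figure D2:**
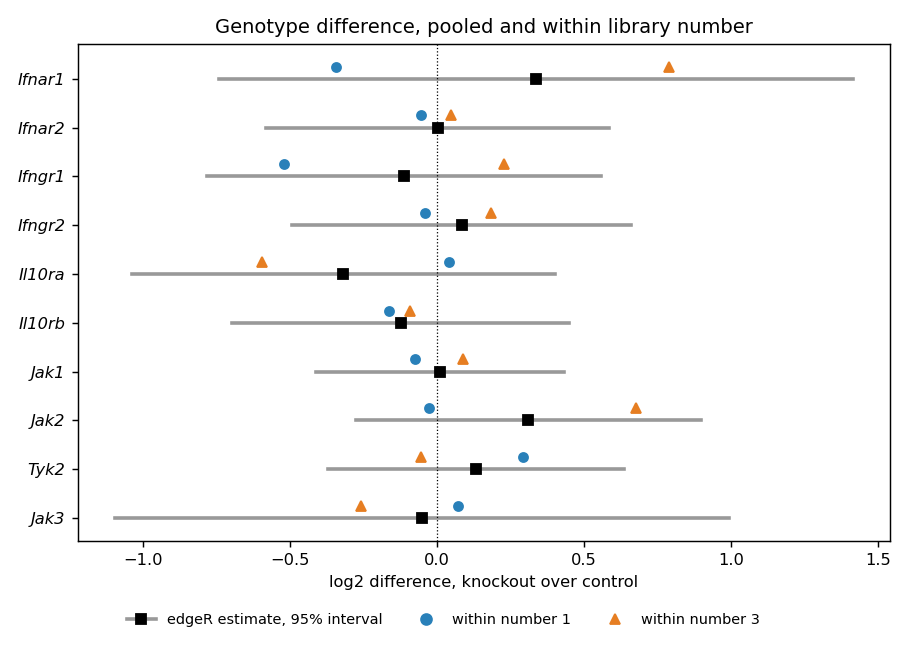
Log2 difference, knockout over control, for each member: black squares give the edgeR estimate over all 4 libraries with its 95% interval as a grey bar, and circles and triangles give the difference within number 1 and within number 3. Every interval includes 0, and the marks of the 2 numbers lie on opposite sides of 0 for 9 of the 10 genes.

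Except for Il10rb, the sign of the genotype difference was not the same in both numbers. For 9 of the 10 members the difference had opposite signs in number 1 and number 3, as it had for 47.2% of the tested genes. The widest contrasts were those of Ifnar1 and Ifngr1 (both lower in the knockout within number 1 and higher within number 3), Il10ra and Jak2. For the other 5 the values were smaller: within number 1 and number 3 they were -0.0552 and 0.0493 for Ifnar2, -0.0407 and 0.18 for Ifngr2, -0.0736 and 0.0901 for Jak1, 0.29 and -0.0532 for Tyk2, and 0.0724 and -0.26 for Jak3. With 1 library per genotype and number, a fit of this contrast leaves no residual degrees of freedom, so it was not tested.

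Several members differed more between library numbers than between genotypes. Both libraries numbered 3 lay above both numbered 1 for Ifnar1, Ifnar2, Ifngr2, Il10ra and Il10rb (26.2% of tested genes did so), and below them for Jak3 and Tyk2 (25.2% of tested genes; 51.4% did either). In an edgeR fit with genotype as a term, added after the data were seen, 0 members were called between numbers at an adjusted p under 0.05, against 0.707% of tested genes, and 3 had an unadjusted p under 0.05, against 17.6%. Those were Jak3 with a log2 difference of -0.76 ± 0.15, number 3 over number 1 (edgeR unadjusted p = 0.00668, adjusted p = 0.136), Ifnar2 with 0.36 ± 0.12 (edgeR unadjusted p = 0.0365, adjusted p = 0.251) and Il10rb with 0.35 ± 0.12 (edgeR unadjusted p = 0.0390, adjusted p = 0.258; SE, 2 libraries per number for each). The difference between numbers was the larger one for 9 of the 10 members, Jak2 being the exception, and for 64.2% of tested genes. Its median size, whatever the sign, was 0.34 for the members and 0.32 for all tested genes. For the 4697 tested genes whose mean level lay in the members' range it was 0.19. Summed over 6 fibroblast markers, 502 and 811 CPM were found in knockout 3 and control 3, against 335 and 426 CPM in knockout 1 and control 1. Of these 6, Col3a1 went the other way, at 61.3 and 102.7 CPM against 102.8 and 124.2 CPM in the same order. The B cell marker Cd79b stood at 2.46 and 2.78 CPM in knockout 3 and control 3, against 9.88 and 5.15 CPM in knockout 1 and control 1. The other 4 B cell markers stood at 0.256 CPM or less in every library. Number, sex and these marker levels cannot be told apart here.

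The cluster on chromosome 16 holds 4 of the 6 receptor genes side by side. Ifnar2, Il10rb, Ifnar1 and Ifngr2 lie in that order on the plus strand within 192841 bases, from 91372783 to 91565623, and Ifnar2 and Il10rb are separated by 574 bases. Ifnar2, Il10rb and Ifngr2 had similar levels and the same order of libraries by number, with log2 differences of 0.33 to 0.36, number 3 over number 1, in the fit above. Ifnar1, which lies between Il10rb and Ifngr2, was nearly level between controls 3 and 1 and reached 1.73 times its next library in knockout 3. The predicted gene Gm21970 overlaps both Ifnar2 and Il10rb on the same strand and had a count of 0 in all 4 libraries. The other 7 annotated genes in the interval had at most 23 counts in a library.

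**Figure D3:**
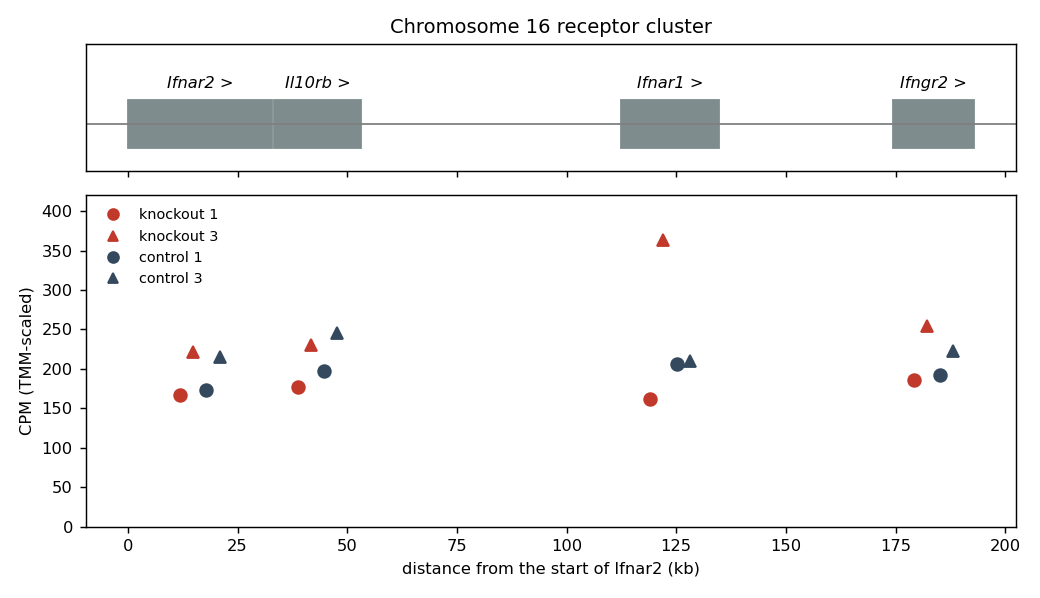
Map of the receptor cluster on chromosome 16 with distance from the start of Ifnar2 in kb (top; all 4 genes are read left to right) and the TMM-scaled CPM of each gene in the 4 libraries (bottom; knockouts red, controls dark, triangles for number 3). Ifnar1 in knockout 3 stands at 364 CPM, while its neighbours in that library stand between 222 and 254 CPM.

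Of the genes that overlap the kinases, most had few counts. Insl3 overlaps 1362 bases of Jak3 on the same strand but had 2 to 9 counts per library. The antisense gene 1700084C06Rik covers 24326 bases of Tyk2 and had at most 3 counts. Raver2, on the strand opposite Jak1, was expressed, with 59.9 and 3.15 CPM in knockouts 1 and 3 and 24.9 and 4.68 CPM in controls 1 and 3, but shares 4 bases with it. Libraries were made with a dUTP protocol that keeps the strand; the sources used here do not say whether counting used it.

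By level, the kinases Tyk2 and Jak3 were the lowest of the set, at the 84.9th and 76.6th percentile of FPKM among genes with a count. The mean FPKM over all 4 libraries was 52.5 for Ifnar2, 51.1 for Ifngr2, 50.2 for Il10rb, 46.2 for Jak1, 43.1 for Il10ra, 35.8 for Ifngr1, 35.6 for Ifnar1 and 25.0 for Jak2. Neighbours in this order overlapped in their ranges over the 4 libraries, so the order between neighbours is not fixed beyond that spread. Genes farther apart could be separate on this scale. Jak2 reached at most 29.8 FPKM, below the lowest library of Il10ra at 36.0 FPKM. Ifngr1 reached at most 41.6 FPKM, below the lowest library of Jak1 at 43.9 FPKM. Tyk2 at 10.9 FPKM lay below Jak2, and Jak3 at 6.00 FPKM below Tyk2, without overlap. Jak1 varied least, by 1.10-fold between its lowest and highest library, and Ifnar1 most, by 2.22-fold. Of the summed FPKM of the 4 kinases, Jak1 made up 48.7% and 52.6% in knockouts 1 and 3 and 51.3% and 57.5% in controls 1 and 3. The share of Jak2 was 28.3% and 32.3% in the knockouts and 28.8% and 23.5% in the controls. The share of Tyk2 was 14.4% and 10.6% against 11.8% and 12.8% in the same order, and Jak3 took 4.38% to 8.58%. The kinases summed to 90.1 and 92.1 FPKM in knockouts 1 and 3 and to 89.2 and 81.0 FPKM in controls 1 and 3, whereas the 2 IFNAR chains summed to 69.8 and 114 FPKM in the knockouts and to 77.4 and 91.1 FPKM in the controls.

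**Figure D4:**
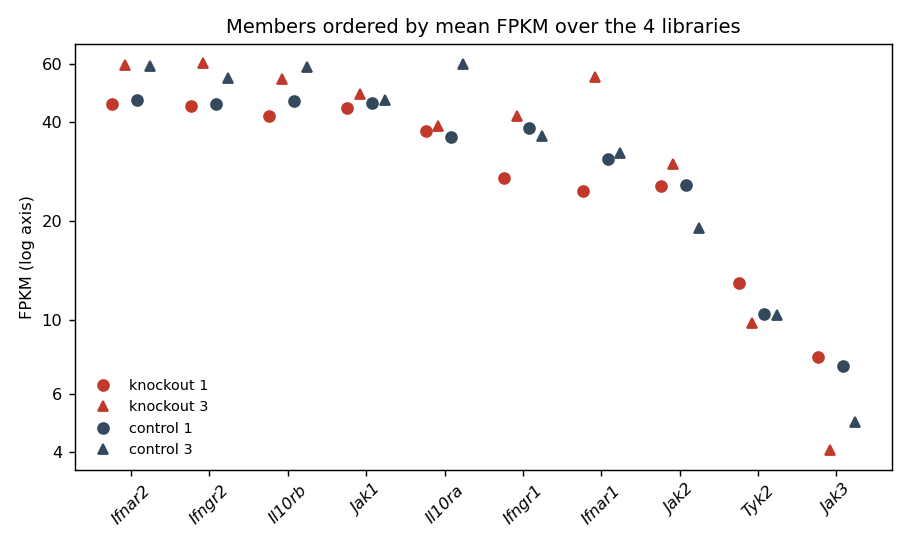
FPKM of each member on a log axis, ordered by the mean over the 4 libraries, with knockouts in red left of controls in dark, circles for number 1 and triangles for number 3. The first 8 genes overlap with their neighbours, and Tyk2 and Jak3 lie below them without overlap.

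The mRNAs were searched for GGACT, the most common core of the motif at which the METTL3 complex methylates adenosine, because the knocked-out gene writes that mark; m6A itself was not measured. In the transcript with the longest coding sequence per gene (GENCODE M21, GRCm38), the members held 3 to 10 matches each, with a median of 1.42 per kilobase against 1.02 over 21702 coding genes. Ifnar2 had the highest density, at 3.28 per kilobase, and Tyk2 the lowest, at 0.621. Within 200 bases of the stop codon, where m6A is known to be concentrated, 5 members had a match, against 35.7% of coding genes: Ifnar2, Ifngr1, Ifngr2, Il10ra and Il10rb, so 5 of the 6 receptor chains and 0 of the 4 kinases. For each of these the match nearest the stop codon is printed with 8 bases on either side as it reads in the mRNA (T for U), GGACT in capitals. The edgeR genotype test above called 0 of all tested genes, these 5 included, so it says nothing about genes with the motif.
Ifnar2, coding, A of GGACT 77 bases before the last base of the stop codon, chr16:91404327-91404347, plus strand: ggatctatGGACTgaagatgg
Ifngr1, coding, 190 bases before it, chr10:19609488-19609508, plus strand: tccatatcGGACTtggaatct
Ifngr2, coding, 61 bases before it, chr16:91562934-91562954, plus strand: gactcctgGGACTccgtgtca
Il10ra, coding, 91 bases before it, chr9:45255611-45255631, minus strand: gaccctctGGACTgtggggca
Il10rb, 3′ UTR, 131 bases after it, chr16:91425244-91425264, plus strand: taatttagGGACTgagggtgt

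Ligand genes of the interferon and IL-10 families were mostly absent from the counts. Of 26 ligand genes, 2 could be tested. Il10 stood at 8.81 and 4.75 CPM in knockouts 1 and 3, against 3.15 and 3.45 CPM in controls 1 and 3, so the knockouts were the 2 higher libraries, and its log2 fold change was 1.04 ± 0.42 (edgeR unadjusted p = 0.0591, adjusted p = 1). Number 1 gave 1.48 for it and number 3 gave 0.46. Ifng had 23 and 12 counts in the knockouts and 0 and 21 in the controls. Ifnb1 and all 14 interferon alpha genes of the list had a count of 0 in every library, which at these depths allows at most 3 counts of the total, for counting error only. RNA was taken after 24 h of co-culture and this is a level at that time.

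Below the receptors, the STATs and the target genes did not share one pattern, and edgeR called 0 members of any list. The lists were chosen with earlier results of these data known and hold some genes in common. Of the 7 STAT factors 2 lay above 0 and 5 below, with a median of -0.02 (0.016 in number 1 and -0.066 in number 3). Stat2, which joins the complex that type I interferon forms, was highest in the 2 knockouts. It stood at 259 and 284 CPM there and at 180.4 and 114 CPM in the controls. Its log2 fold change was 0.88 ± 0.27 (edgeR unadjusted p = 0.0244, adjusted p = 1), with 0.52 in number 1 and 1.32 in number 3. Stat6, which signals below the IL-4 receptor, stood at 262 and 276 CPM in the knockouts and 260.5 and 278 CPM in the controls. All 23 type I interferon-stimulated genes had a fold change above 0, with a median of 1.10 beside 0.00 over all tested genes. By edgeR 19 had an unadjusted p under 0.05, against 2.27% of all tested genes. DESeq2 called 7, against 0.295% of all genes. The median difference of the 23 genes was 0.69 within number 1 and 1.35 within number 3. Of the 13 tested interferon gamma targets 10 lay above 0 and 3 below, with a median of 0.35 (0.16 in number 1 and 0.36 in number 3). DESeq2 called 2 of them, against 0.295% of all genes. Tap1, a peptide transporter, stood at 65.6 and 84.6 CPM in the knockouts against 36.3 and 37.5 CPM in the controls (DESeq2 adjusted p = 0.0422). Cxcl10, a chemokine, stood at 7.07 and 10.2 CPM against 3.26 and 2.47 CPM (DESeq2 adjusted p = 0.0393). Cd74 lay below 0 (log2 fold change -0.39 ± 0.49), at 247 and 117 CPM in the knockouts against 314 and 164 CPM in the controls. Of the 11 IL-10 targets 9 lay below 0, with a median of -0.17 (-0.21 in number 1 and -0.0810 in number 3) and 0 members at an unadjusted p under 0.05 by edgeR or called by DESeq2; Hmox1 stood at 1013 and 927 CPM in the knockouts and at 940.3 and 804 CPM in the controls, and Sbno2 at 251 and 202 CPM against 290 and 237 CPM.

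**Figure D5:**
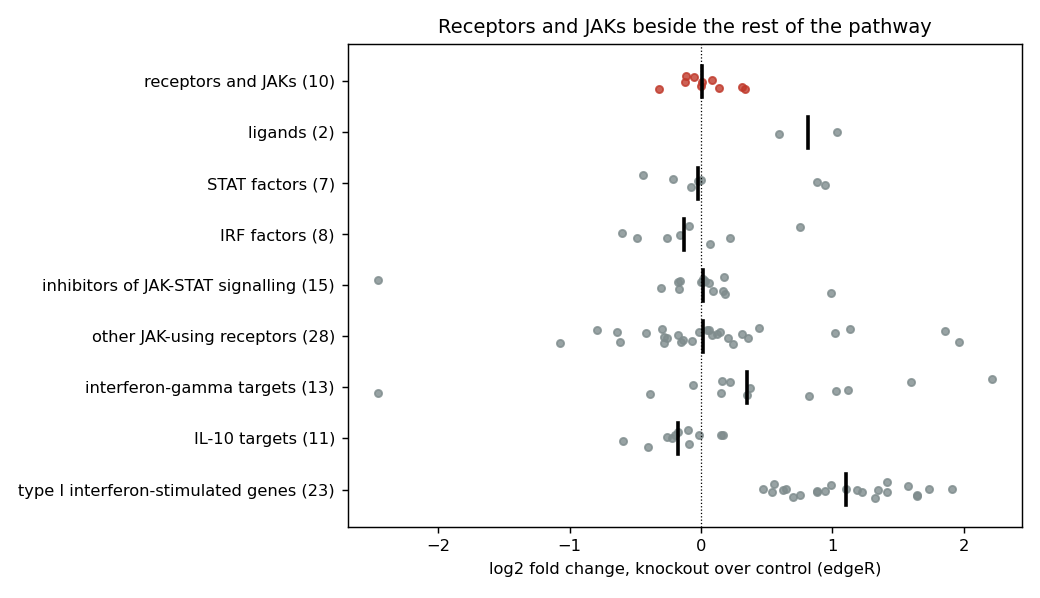
Log2 fold change, knockout over control, by edgeR for each tested gene (points), with the number of genes in brackets and the median as a black bar. The receptors and JAKs (red) lie between -0.32 and 0.34, and the type I interferon-stimulated genes all lie above 0 with a median of 1.10.

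The medians of the remaining lists lay between -0.13 and 0.02. The 15 inhibitors of JAK-STAT signalling had a median of 0.02 (-0.01 in each number), with 10 above 0 and 5 below. By edgeR 1 had an unadjusted p under 0.05, against 2.27% of all tested genes. That was Usp18, which displaces JAK1 from IFNAR2 and is itself induced by interferon, at 47.7 and 59.3 CPM in the knockouts against 29.2 and 24.6 CPM in the controls (log2 fold change 0.99 ± 0.20; edgeR unadjusted p = 0.00575, adjusted p = 1; DESeq2 adjusted p = 0.0924). Within number 1 its difference was 0.71, and within number 3 it was 1.27. Socs1, an inhibitor that acts on the JAKs, stood at 0.208 and 1.18 CPM in the knockouts and at 6.26 and 1.39 CPM in the controls. It differed mainly within number 1, with a log2 difference of -4.72 there and -0.235 within number 3. Socs3, which limits signalling through gp130, stood at 256 and 152 CPM in the knockouts and at 312 and 148 CPM in the controls. Ptpn6, the phosphatase SHP-1, stood at 513 and 520.1 CPM against 399.7 and 522 CPM. The 8 tested IRF factors had a median of -0.13 (-0.17 in number 1 and 0.005 in number 3). Irf7 stood at 90.9 and 154 CPM in the knockouts and at 57.2 and 88.3 CPM in the controls, Irf5 at 79.3 and 97.6 CPM against 100.1 and 112 CPM, and Irf8 at 78.4 and 79.3 CPM against 157 and 82.1 CPM. Of 28 other JAK-using receptors 14 lay on each side of 0, with a median of 0.01 (-0.0430 in number 1 and 0.0720 in number 3) and 0 at an unadjusted p under 0.05 by edgeR or called by DESeq2. Il2rg, the common gamma chain through which JAK3 acts, stood at 273 and 266 CPM in the knockouts and at 224 and 196 CPM in the controls (log2 fold change 0.36 ± 0.16; edgeR unadjusted p = 0.0769, adjusted p = 1), with 0.28 in number 1 and 0.44 in number 3.

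For Jak2, the member with the smallest p, the genes of most similar pattern were listed. By the distance between log2 CPM values centred over the 4 libraries, Ndufa4 (0.04), Sap30 (0.05) and Tdrd7 (0.05) were nearest of 13573 genes compared, and 13 genes lay within 0.1. With 4 libraries such a likeness is a description only.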

How the data were processed

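Per the file headers, the authors deposited 1 table that holds estimated counts and FPKM for every gene in each library. The deposited counts are whole and not normalized; the FPKM values were scaled by the authors for gene length and library size, and matched the counts divided by the total exon length of a gene. The submitters' processing notes list cutadapt 1.9, HISAT2 2.0.4, StringTie 1.3.4d, edgeR and DESeq2; no source used here gives the build. Start and end of 94.2% of shared genes, and of all 10 members, equalled GENCODE M21 (GRCm38). Another 4 columns, from 2 libraries that match no sample, were not used.

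Counts were fitted over the whole table with edgeR 4.0.16 in R 4.3.3 (TMM, filterByExpr, quasi-likelihood test, two-sided, Benjamini-Hochberg, threshold 0.05). Each SE was taken as the size of the estimate over the root of its F value, and 95% intervals use the test's degrees of freedom. Differences within a number use log2 CPM with a prior count of 2. DESeq2 1.42.0, limma 3.58.1 on log2(FPKM + 1), other scalings and filters, the replicate number as a block and fits without each library in turn were alternatives. The code was tested on simulated data. The members, lists and tests were chosen with earlier results of these data known. Named genes are the 10 members and, per list, the 2 with the highest FPKM and the 2 with the smallest p, of which some are given; Xist, Lyz2, Itgam, Cd79b and Raver2 were singled out after their values were seen, and the motif searches were added then. One gene that the rule names is not reported here. The series' design text speaks of biological replicates but ties no library to a mouse, so p-values measure the spread between these libraries.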

Additional observations from a re-analysis of the deposited data

Results flagged for a closer look

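For 9 of the 10 members the log2 difference, knockout over control, had one sign within number 1 and the other within number 3; each value rests on 1 library per genotype, and the contrast was not tested. Among the receptor chains the values were -0.34 and 0.79 for Ifnar1, -0.0552 and 0.0493 for Ifnar2, -0.52 and 0.23 for Ifngr1, -0.0407 and 0.18 for Ifngr2, and 0.0406 and -0.59 for Il10ra, each time number 1 before number 3. Among the kinases they were -0.0736 and 0.0901 for Jak1, -0.0276 and 0.68 for Jak2, 0.0724 and -0.26 for Jak3, and 0.29 and -0.0532 for Tyk2.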

How the results depend on the processing

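Over all genes edgeR called 0, DESeq2 74 and DESeq2 with the replicate block (added after the data were seen) 175; for the pathway lists the counts were 0, 9 and 20, and for the members 0 in each. The 20 include Stat2 (DESeq2 adjusted p = 0.0101), Usp18 (0.0102) and Irf7 (0.0286), which DESeq2 without the block did not call. Under RLE or total-count scaling, no filter on low counts, limma on log2(FPKM + 1) or log2(FPKM + 0.1), counts divided by 4 and each library left out, 0 of all genes were called, so the 0 members called there say nothing about stability. edgeR with the replicate block called 0 genes, 0 members and 0 list genes, with 0 members at an unadjusted p under 0.05, against 5.38% of all genes; with DESeq2 and the block it was again 0 members, against 3.81%. No label ties equal numbers to one litter, batch or culture day; across genes, deviations of same-numbered libraries from their group means correlated at 0.419. Among 90 fold changes of members recomputed on all 4 libraries, 84 kept their sign. Ifnar2 turned to -0.00305 with the replicate block and -0.00301 with counts divided by 4, and to -0.011 with limma at either pseudocount; Jak1 turned to -0.00012 with a pseudocount of 1 and -0.00015 with 0.1. With 1 library left out, the lone library of a group being assumed to vary like the other group, only Jak2 kept its sign throughout (0.10 to 0.57). The ranges were -0.36 to 0.82 for Ifnar1, -0.22 to 0.21 for Ifnar2, -0.465 to 0.19 for Ifngr1, -0.155 to 0.31 for Ifngr2, -0.62 to 0.0789 for Il10ra, -0.33 to 0.0721 for Il10rb, -0.0702 to 0.10 for Jak1, -0.57 to 0.34 for Jak3 and -0.0613 to 0.32 for Tyk2. Leaving out 1 library mixes number with genotype.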
